A study of Mus musculus with 6 samples.

Results

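The S100 proteins were followed through a comparison of cells labelled as mouse bladder epithelium, with and without a red fluorescent reporter. Of 10 listed S100 genes (S100a1, S100a4, S100a6, S100a8, S100a9, S100a10, S100a11, S100a13, S100a14 and S100a16), 9 had at least 1 probe set annotated to that gene alone, among 18193 genes with such a probe set in all. These 9 genes were read by 13 probe sets, the sets of short probes that measure a transcript on an Affymetrix array. S100a11 was not analysed here, because the probe set annotated to it is also annotated to its pseudogene S100a11-ps and to a predicted gene. The genes were taken by name as a family, with earlier results of these data known.

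All 6 samples are labelled as bladder epithelial cells and came from mice 7 days after birth (strain FVB/N x C57BL/6). The labels report the allele B6;129P-Upk1btm1Zhang/J, a change at Upk1b, for both groups. By their labels, 3 samples were DsRed-positive and 3 DsRed-negative, numbered 1, 2 and 5 in each group. The sample titles carry the word uroplakin with +ve or -ve. The uroplakin signals below may therefore follow from how the groups were chosen, which was not tested. The labels state neither which promoter drives DsRed, nor whether the allele was present in 1 or both copies, nor how the cells were separated, and the tissue carried no treatment beyond the enzymes used to free the cells. Samples were not pooled, but whether each is a different animal is not stated. The p-values therefore reflect only how far these samples differ, which may be technical.

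S100 proteins are small calcium-binding proteins of the EF-hand type that usually act as dimers. When calcium binds, a dimer exposes a surface that docks onto target proteins such as annexins, cytoskeletal proteins and enzymes, and some members are also released and bind receptors on other cells. Many S100 genes lie together in the epidermal differentiation complex, a region rich in genes of skin and other barrier epithelia, and S100a8 and S100a9 are best known as abundant proteins of neutrophils.

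The array signals set the frame for every value below. Signals are given as log2 of the deposited intensity after addition of an offset and quantile normalization, and a change is the DsRed-positive mean minus the DsRed-negative mean on that scale. The control level is the signal below which 95% of 27 probe sets for bacterial transcripts fell, and it lay between 7.41 and 8.03. Upk1b rose by 4.27 ± 0.48 (SE, n = 3 per group, adjusted p = 0.00105 by limma, and 5.09 with adjusted p = 0.0139 without both arrays numbered 1). All 12 general epithelial genes and all 5 uroplakins listed rose, beside 9.21% of all tested genes called higher. All 9 measured fibroblast and matrix genes and 8 of 11 tested leukocyte and macrophage genes fell, beside 11.3% called lower. Of these, Rab25 had a DsRed-negative mean (7.13) and Ptprc a DsRed-positive mean (6.34) under the minimum mean signal for testing, 7.18. The DsRed-negative samples thus went against a purely epithelial label: the collagen gene Col1a1 was 16.82 to 16.99 there (10.52 to 11.53 in DsRed-positive) and Cdh1, encoding E-cadherin, 10.52 to 11.58 (15.37 to 16.17). Fewer cells of a type and less RNA per cell cannot be told apart in such samples. The labels give male sex for all 6 samples, but both arrays numbered 1 had high Xist (15.48 and 15.08, against 8.08 to 8.89 on the other 4) and low Eif2s3y, a gene of the Y chromosome (5.44 and 6.32, against 11.78 to 12.93). The S100 genes, relatives and partners that passed on their brightest probe set are therefore also given without both arrays numbered 1.

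Among the S100 genes, 2 rose in DsRed-positive cells, S100a14 by 7.16-fold and S100a6 by 2.74-fold, and none fell. Of the other 7 measured genes, S100a1, S100a4, S100a8, S100a10, S100a13 and S100a16 did not pass the test, and S100a9 was too dim to be tested. Over all 14222 tested genes, 9.21% were called higher, 11.3% lower and 20.5% in either direction, and 2 of only 8 tested S100 genes is read against that background. Counted by probe set, 2 of 11 tested rose, beside 17.2% of all 30175 tested probe sets called (8.63% higher and 8.62% lower). For 3 of the 8 genes the groups did not overlap, beside 43.4% of all tested genes. The median change of the 8 was 0.0072, beside 0.035 over all tested genes. The median over all probe sets was 0.09 as reported, -0.19 with the deposited scale and 0.35 with median centring, so small changes shift with the scaling. Only genes above a minimum mean signal entered the test, so these counts leave out S100a9 as well as S100a11.

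**Figure D1:**
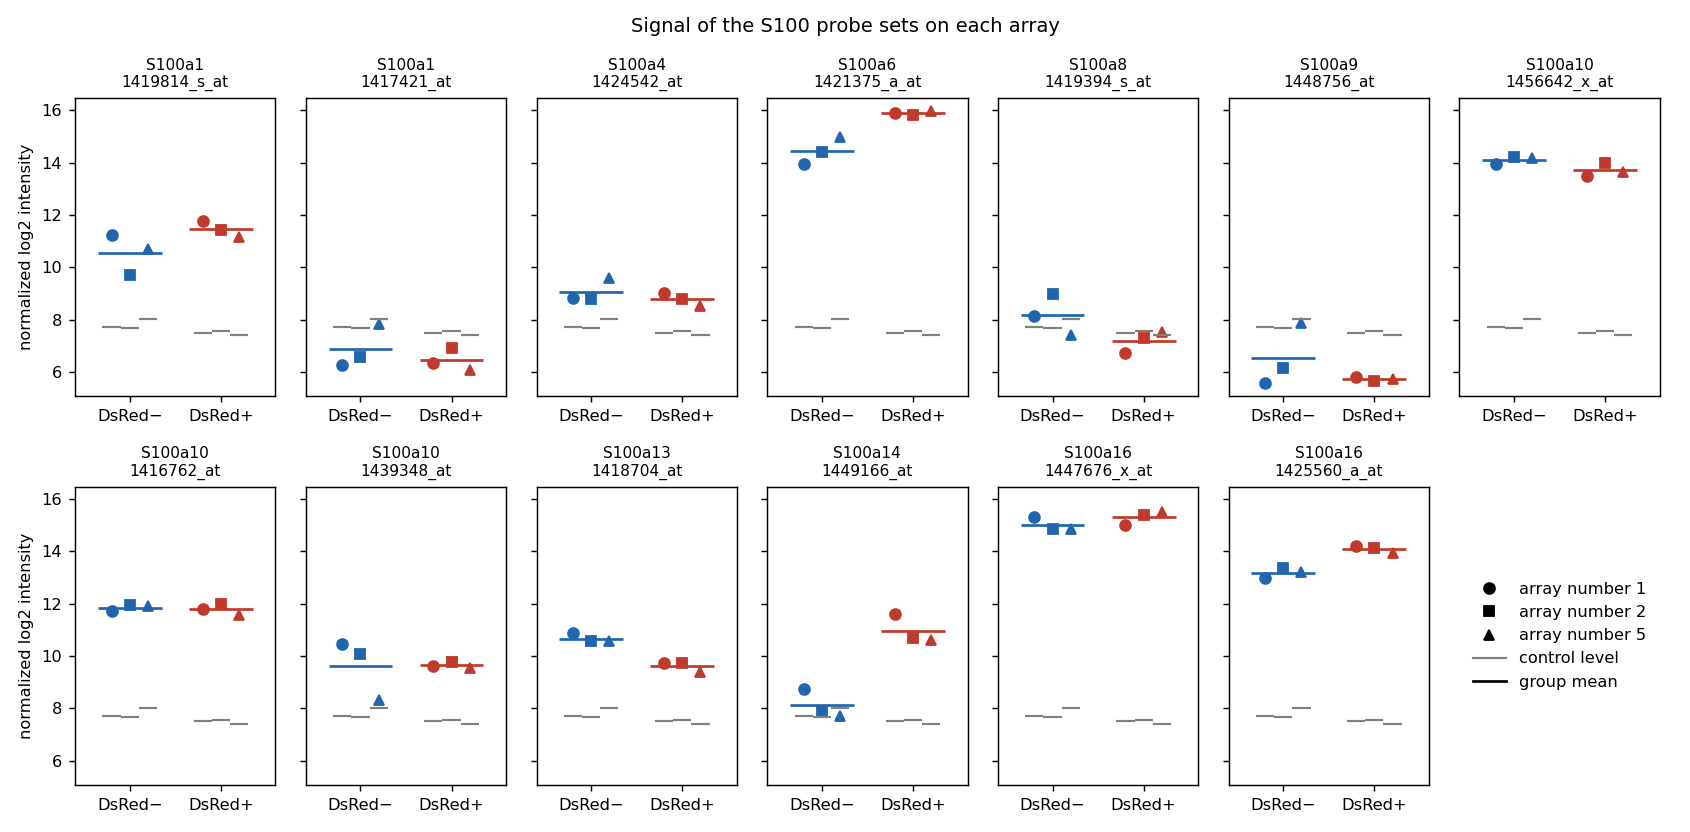
Normalized log2 intensity (y axis) of the 13 S100 probe sets on each of the 6 arrays, blue for DsRed-negative and red for DsRed-positive, with a symbol for each array number, a coloured line at each group mean and a grey line at that array's control level. The groups do not overlap for S100a14, S100a6, S100a13 and the dimmer S100a16 probe set, and S100a9 lies below the control level on all 6 arrays.

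The S100 genes on chromosome 3 start from promoters of which RefSeq (build GRCm38.p6) lists 9 windows for 8 of the 10 genes, each of 250 bases before and 50 bases after a transcript start. S100a10 and S100a14 have no entry in that table. The window of S100a6 is shown because this gene rose, that of S100a4 because the gene lies close by and did not pass, and that of S100a13 because it overlaps the window of S100a1 on the opposite strand. Capitals in S100a4 mark a match to TATAAA, and capitals in S100a13 mark the 204 bases shared with the S100a1 window.
S100a6 (chr3:90612644-90612943, plus strand): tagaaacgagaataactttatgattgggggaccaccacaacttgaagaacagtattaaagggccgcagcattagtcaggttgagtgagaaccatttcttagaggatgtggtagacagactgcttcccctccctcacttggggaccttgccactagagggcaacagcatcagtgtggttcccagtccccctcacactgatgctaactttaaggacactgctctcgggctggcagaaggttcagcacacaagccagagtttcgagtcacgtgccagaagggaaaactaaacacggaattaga
S100a4 (chr3:90603520-90603819, plus strand): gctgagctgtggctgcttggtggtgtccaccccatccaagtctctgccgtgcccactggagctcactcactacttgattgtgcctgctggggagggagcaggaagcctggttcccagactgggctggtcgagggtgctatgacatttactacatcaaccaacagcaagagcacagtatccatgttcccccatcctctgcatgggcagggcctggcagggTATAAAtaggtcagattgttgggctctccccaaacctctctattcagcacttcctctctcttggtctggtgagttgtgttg
S100a13 (chr3:90514185-90514484, plus strand): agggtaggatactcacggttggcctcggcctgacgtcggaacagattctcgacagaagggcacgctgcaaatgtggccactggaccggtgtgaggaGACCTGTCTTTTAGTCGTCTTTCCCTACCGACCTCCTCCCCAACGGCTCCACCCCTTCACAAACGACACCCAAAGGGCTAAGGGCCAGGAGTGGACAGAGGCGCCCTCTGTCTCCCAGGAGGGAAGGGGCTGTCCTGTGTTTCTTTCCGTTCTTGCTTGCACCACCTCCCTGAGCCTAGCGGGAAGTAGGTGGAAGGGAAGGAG

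The windows were searched on both strands for 4 motifs, chosen with the results in view, which do not contain one another. TATAAA, the TATA box, was present in 13.6% of all 32851 windows and in those of S100a4, S100a8 and S100a9. Counted from the transcript start it lay at -31 in S100a4 and -30 in S100a8, but at the start itself in S100a9. TGANTCA, a looser form of the AP-1 consensus TGA(C/G)TCA, was in 7.81% of all windows. The S100a11 window held it as TGAGTCA. That of 1 of the 2 S100a16 starts held TGAATCA, which is outside the consensus. AACCNGTT, bound by Grainyhead factors, was in 2.09% of all windows and among these genes in S100a9 only. GGGCGG, the GC box, was in 35.7% of all windows and in those of S100a9, S100a11 and 1 S100a16 start. The windows of S100a6, S100a1 and S100a13 held none of the 4. A match is a description of the letters and not a measured binding site.

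S100a14, an S100 protein of epithelia that can pair with S100a16, had the largest change of the listed genes. On arrays 1, 2 and 5 its log2 signal was 11.60, 10.69 and 10.60 for DsRed-positive cells, against 8.74, 7.91 and 7.73 for DsRed-negative samples with those numbers. The groups did not overlap, and DsRed-negative array 5 lay below its control level of 8.03. As deposited, the signal was 3353, 1531 and 1513 in DsRed-positive cells and 433, 276 and 210 in DsRed-negative cells. The change was 2.84 ± 0.44 (SE, 95% interval 1.81 to 3.87, adjusted p = 0.00447 by limma). This call was kept in all 18 alternatives, with changes from 2.19 to 3.19, and without both arrays numbered 1 the change was 2.79 (adjusted p = 0.0283). The gene has a single probe set, so the alternatives that average or choose probe sets could not change its signal.

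S100a16, the partner of S100a14 in mixed dimers, was read by a pair of probe sets, and neither passed. The brighter, of a type (suffix _x_at) that can also bind related transcripts, gave 15.01, 15.39 and 15.48 in DsRed-positive and 15.30, 14.85 and 14.85 in DsRed-negative arrays 1, 2 and 5. These groups overlapped, and the change of 0.29 ± 0.33 did not pass (95% interval -0.49 to 1.07, adjusted p = 0.593). The dimmer one gave 14.21, 14.13 and 13.92 against 12.99, 13.36 and 13.20. Here every DsRed-positive array was above every DsRed-negative one, but the change of 0.90 ± 0.31 did not pass (95% interval 0.17 to 1.63, adjusted p = 0.0934). With both probe sets averaged the value was 0.60 (adjusted p = 0.136).

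S100a6, also known as calcyclin, gave bright signals in both groups and was higher in DsRed-positive cells. It measured 15.89, 15.83 and 15.95 in DsRed-positive arrays 1, 2 and 5, against 13.93, 14.39 and 14.99 in DsRed-negative ones. The 3 DsRed-positive arrays were close together (SD 0.06) and lay above the DsRed-negative ones, which were more spread out (SD 0.53). The change was 1.45 ± 0.37 (SE, 95% interval 0.58 to 2.32, adjusted p = 0.0354 by limma). The call did not hold throughout: it was kept without DsRed-negative 5 (adjusted p = 0.0276) but not without any other single array (0.0723 to 0.106), without both arrays numbered 1 (0.176), with the values as deposited (0.0920), with an offset of 1 (0.0525) or with a replicate block (0.0601).

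S100a13, which takes part in the release of Fgf1 and Il1a from cells, was lower in DsRed-positive arrays without passing. It measured 9.73, 9.75 and 9.39 there and 10.87, 10.56 and 10.57 in DsRed-negative arrays 1, 2 and 5, and the groups did not overlap. The change was -1.04 ± 0.32 (95% interval -1.78 to -0.30, adjusted p = 0.0630). All DsRed-positive arrays lay below all DsRed-negative ones for 21.4% of all tested genes, and above them for 22.0%, so such a separation alone is common here. S100a13 passed as lower on the deposited scale (adjusted p = 0.0440), with the offset at the 50th percentile (0.0353), with the filter at the 50th percentile (0.0412) and with 1 averaged value per gene (0.0289), but in no fit without 1 array (0.0784 to 0.184). Without both arrays numbered 1 its change was -0.97 (adjusted p = 0.248).

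S100a1, best known from heart and skeletal muscle as a regulator of calcium release, was above the control level on 1 of its 2 probe sets. The brighter (suffix _s_at) can be shared by several transcripts and gave 11.78, 11.44 and 11.14 in DsRed-positive against 11.23, 9.71 and 10.72 in DsRed-negative arrays 1, 2 and 5. The groups overlapped, and the change of 0.90 ± 0.46 did not pass (95% interval -0.17 to 1.98, adjusted p = 0.224). The other S100a1 probe set was below the control level on all 6 arrays (6.07 to 7.85) and was not tested.

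S100a10, or p11, which forms a complex with annexin A2 at the membrane, showed no change that passed on any of its 3 probe sets. The brightest is of the _x_at type, which can also bind related transcripts. It gave 13.48, 13.99 and 13.63 in DsRed-positive and 13.94, 14.22 and 14.16 in DsRed-negative arrays, a change of -0.40 ± 0.32 (95% interval -1.16 to 0.35, adjusted p = 0.439). The groups overlapped, and median centring of the arrays turned the value to 0.19. The other probe sets gave -0.07 (95% interval -0.80 to 0.67) and 0.02 (-1.30 to 1.34).

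S100a4, also called fibroblast-specific protein 1, did not pass, while the listed fibroblast genes fell. It measured 9.01, 8.81 and 8.54 in DsRed-positive and 8.82, 8.78 and 9.59 in DsRed-negative arrays 1, 2 and 5, all above the control level and overlapping between groups. The change was -0.28 ± 0.37 (95% interval -1.14 to 0.58, adjusted p = 0.648). In the same arrays the 9 measured fibroblast and matrix genes had a median change of -6.67. Their summed deposited signal was 772126 to 1727427 in DsRed-negative and 15569 to 29337 in DsRed-positive arrays. The part that fibroblasts, leukocytes or other cells took in the S100a4 signal was not tested.

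S100a8 and S100a9, the 2 subunits of calprotectin, were dim. S100a8 was read by a probe set (suffix _s_at) that can be shared by several transcripts. S100a8 gave 8.15, 8.97 and 7.41 in DsRed-negative arrays 1, 2 and 5 and 6.74, 7.31 and 7.51 in DsRed-positive ones. It was above the control level in DsRed-negative 1 and 2 and, barely, in DsRed-positive 5, and the groups overlapped. The change of -0.99 ± 0.47 did not pass (95% interval -2.09 to 0.12, adjusted p = 0.199). S100a9 was below the control level on all 6 arrays, with 5.60, 6.17 and 7.86 in DsRed-negative and 5.67 to 5.80 in DsRed-positive arrays, so no fold is given.

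Of 12 neutrophil markers listed, 9 were measured and 5 tested. The neutrophil genes Elane, Camp and Cxcr2 were at or below the control level on all 6 arrays. Mpo, encoding myeloperoxidase, fell by 2.39 on the log2 scale (adjusted p = 0.0351). Its DsRed-positive mean was just under the signal filter, so it entered the test through the DsRed-negative arrays 1, 2 and 5 (9.02, 10.73 and 8.78). The other 4 tested did not pass, with Mmp9 at -0.88, Ngp at -0.82, Ltf at -0.64 and Csf3r at -0.12. The summed deposited signal of the list was 1787 to 4283 in DsRed-negative and 573 to 1452 in DsRed-positive arrays. The part of these cells in the S100a8 values was not tested.

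**Figure D2:**
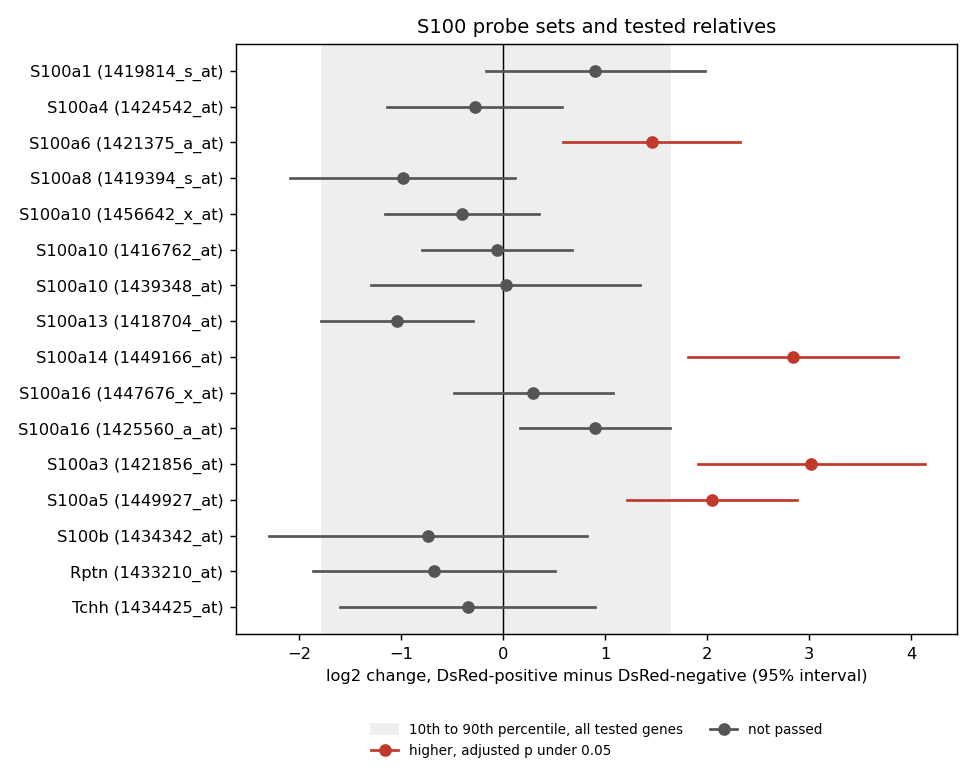
Log2 change with its 95% interval (x axis) for the 11 tested S100 probe sets and for the tested relatives S100a3, S100a5, S100b, Rptn and Tchh, in red where the adjusted p was under 0.05. The grey band spans the 10th to 90th percentile of all tested genes (-1.78 to 1.63), and S100a14, S100a3 and S100a5 have their points to the right of it.

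Of the other S100 family genes, 5 of 7 listed were measured and 3 tested, and S100a3 and S100a5, which lie among the listed genes, rose, beside 9.21% of all tested genes called higher. S100a3 gave 10.28, 9.77 and 10.54 in DsRed-positive and 8.06, 6.50 and 6.98 in DsRed-negative arrays 1, 2 and 5. The groups were well apart, and DsRed-negative 2 and 5 lay below the control level. Its DsRed-negative mean was just under the signal filter, so it entered the test through the DsRed-positive arrays. The change was 3.02 ± 0.48 (adjusted p = 0.00487). S100a5 gave 10.46, 10.49 and 10.94 against 8.64, 8.17 and 8.94, a change of 2.05 ± 0.36 (adjusted p = 0.00750). Without both arrays numbered 1 S100a3 kept its call (adjusted p = 0.0280) and S100a5 lost it (0.0800).

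S100b, a marker of Schwann cells and other glia, did not pass at -0.74 ± 0.67 (adjusted p = 0.495). It lay below the control level on DsRed-negative 2 and 5 and on DsRed-positive 2. Without DsRed-positive 2 its value was 0.019. S100g and S100a7l2 were at or below the control level on all 6 arrays. The same held for Flg, Hrnr and Tchhl1 of the fused-type S100 genes, large barrier proteins with an S100 domain at one end. Rptn (-0.68) and Tchh (-0.35), also of the fused type, did not pass, each with 1 array per group below the control level. Another of the 3 tested Rptn probe sets was called higher (3.01, adjusted p = 0.00277 by limma). All DsRed-negative arrays lay below the control level there, so it was at least 2.59-fold higher. That probe set entered the test only through the DsRed-positive arrays, where it was higher.

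All 10 listed genes lie on chromosome 3, where RefSeq places 15 S100 genes. From S100a1 to S100a9 no other protein-coding gene intervenes, while 56 protein-coding genes lie between S100a9 and S100a11, which is next to S100a10. Among the 15, 10 were tested and 4 rose, beside 9.21% of all tested genes: S100a14, S100a3, S100a5 and S100a6. Of these, S100a3 entered the test through the DsRed-positive arrays, where it was higher. S100a5 and S100a6 lost their calls without both arrays numbered 1. The called genes are not contiguous, since S100a16 lies between S100a14 and S100a3, and S100a4 lies between S100a3 and S100a5. S100a1 and S100a13, whose start windows overlap, had values of opposite sign (0.90 and -1.04) and neither passed. Beyond S100a1 the next gene, Chtop, which encodes a chromatin-associated RNA export factor, rose by 1.90 (adjusted p = 0.0123) on its brighter probe set and did not pass on the other (0.68, adjusted p = 0.190).

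**Figure D3:**
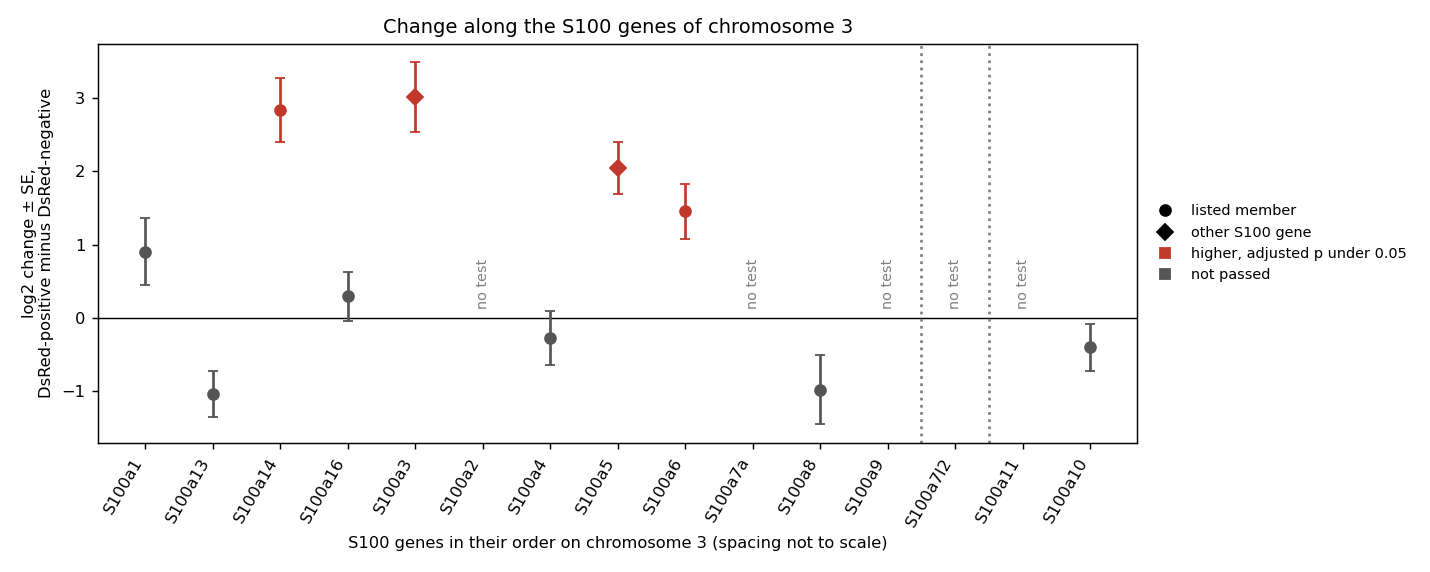
Log2 change ± SE (y axis) of the S100 genes in their order along chromosome 3 (x axis, not to scale), circles for listed genes and diamonds for S100a3 and S100a5, red where the adjusted p was under 0.05. Dotted lines mark stretches with other genes, "no test" marks genes without a tested probe set, and the 4 red points lie from S100a14 to S100a6.

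Proteins that S100 proteins bind were taken from a list of 19 partners and receptors, of which 18 were measured and tested. Of these, 2 rose, 3 fell and 13 did not pass, beside 9.21% and 11.3% of all tested genes. Anxa2, Anxa1 and Ahnak, a giant scaffold protein, are among the annexins and membrane scaffolds that bind S100a10 or S100a11, and did not pass. The changes were 0.34 (95% interval -0.41 to 1.10) for Anxa2, 0.73 (-0.05 to 1.52) for Anxa1 and -0.34 (-1.19 to 0.51) for Ahnak on its brightest probe set. The other 3 Ahnak probe sets did not pass either, at 1.69 (0.35 to 3.03), 1.42 (0.34 to 2.51) and -1.01 (-2.08 to 0.07). Anxa2 was 15.98, 15.85 and 15.52 in DsRed-positive against 15.52, 15.56 and 15.24 in DsRed-negative arrays. Anxa6, another membrane-binding annexin, fell by 1.87 (adjusted p = 0.0336) on 1 of its 3 tested probe sets, and kept its call without DsRed-negative 1 (0.00633) but not without any other single array (0.0712 to 0.12). Without both arrays numbered 1 its change was -2.29 (adjusted p = 0.0433). Plat, the tissue plasminogen activator, had a value of 0.25, and Myh9, the non-muscle myosin heavy chain bound by S100a4, had -0.47.

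Sugt1, a co-chaperone bound by S100a6, rose by 1.61 (adjusted p = 0.0382), on 1 of 2 tested probe sets. Cacybp, the calcyclin-binding protein, did not pass at 0.65 (95% interval -0.08 to 1.38). The Sugt1 call was lost without both arrays numbered 1 (adjusted p = 0.228), with a replicate block (0.0656) and in 5 of the 6 fits without 1 array (0.0692 to 0.141), all but that without DsRed-negative 5 (0.0226). Fgf1, a growth factor released with S100a13, did not pass at 1.96 (adjusted p = 0.0713). Its values were 11.52, 11.62 and 11.05 in DsRed-positive and 9.53, 10.66 and 8.12 in DsRed-negative arrays, so the groups did not overlap. The next brightest of its 3 tested probe sets was called higher (2.06, adjusted p = 0.0255). Il1a (-0.60) and Syt1 (-0.06), the other cargo and helper of that release, did not pass.

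Ryr2, a calcium release channel regulated by S100a1, was at least 1.43-fold higher in DsRed-positive cells, as all DsRed-negative arrays lay below the control level (adjusted p = 0.0202). It did not pass without DsRed-negative 1 (0.0522), without both arrays numbered 1 (0.168) or with a replicate block (0.0526). Ryr2 entered the test only through the DsRed-positive arrays, where it was higher, and fell under the signal filter or had no value in 5 of the 18 alternatives, among them the fits that left out DsRed-positive 1 or 5. The calcium pump gene Atp2a2 had a value of 0.11. Tlr4, a receptor for S100a8 and S100a9, fell by 2.08 (adjusted p = 0.0315), from 9.30, 9.55 and 9.45 in DsRed-negative to 8.07, 6.21 and 7.78 in DsRed-positive arrays, of which array 2 was below the control level. Its other tested probe set did not pass (-1.09). Cd36, a scavenger receptor, fell by 2.15 (adjusted p = 0.0278). Without both arrays numbered 1 neither Tlr4 (adjusted p = 0.103) nor Cd36 (0.169) passed. With a replicate block Tlr4 did not pass (0.0528), and it kept its call in 1 of the 6 fits without 1 array, that without DsRed-positive 1 (0.0470, otherwise 0.0594 to 0.0681). Cd36 passed without DsRed-negative 5 (0.0361) and DsRed-positive 5 (0.0300) but not without any other single array (0.0544 to 0.109). Summed leukocyte and macrophage signal moved the same way, from 40812 to 51146 in DsRed-negative and 3627 to 5662 in DsRed-positive arrays, and its part in these falls was not tested. Ager, the receptor RAGE, did not pass at 1.52 (adjusted p = 0.0599) with all DsRed-negative arrays below the control level, though it passed with a replicate block (0.0420) and with median centring (0.0405). Like Ryr2, Ager entered the test only through the DsRed-positive arrays, where it was higher. Neither Bsg (0.80) nor the Tlr4 co-receptor Ly96 (0.76) passed.

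**Figure D4:**
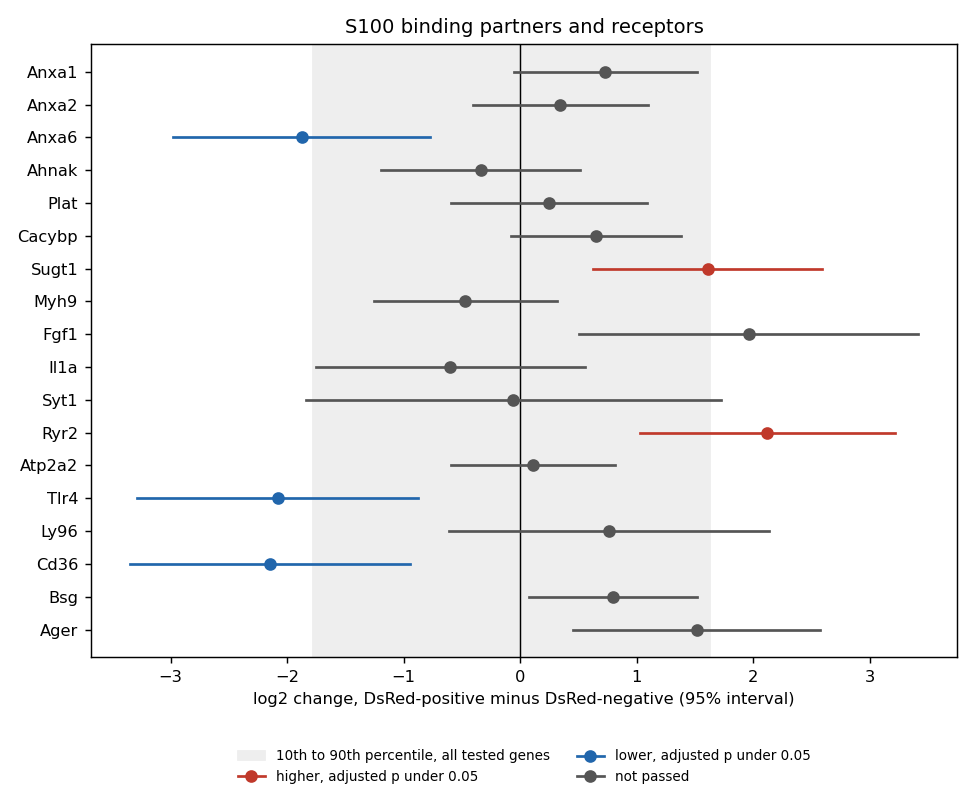
Log2 change with its 95% interval (x axis) for 18 binding partners and receptors of S100 proteins, red for higher and blue for lower in DsRed-positive cells at an adjusted p under 0.05, with the grey band at the 10th to 90th percentile of all tested genes. Sugt1 and Ryr2 are red, Anxa6, Tlr4 and Cd36 are blue, and the remaining 13 did not pass.

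The calls of the S100 genes differed in how far they depended on single arrays and settings. S100a14 stayed under an adjusted p of 0.05 in each of 18 alternatives, and S100a6 in 8 of the 17 in which it had a value. For S100a14, with its single probe set, the alternatives on probe set choice reused the same signal. S100a1, S100a4, S100a8, S100a10 and S100a16 passed in none of the alternatives in which they had a value, with smallest adjusted p of 0.0682, 0.218, 0.0722, 0.251 and 0.136.

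**Figure D5:**
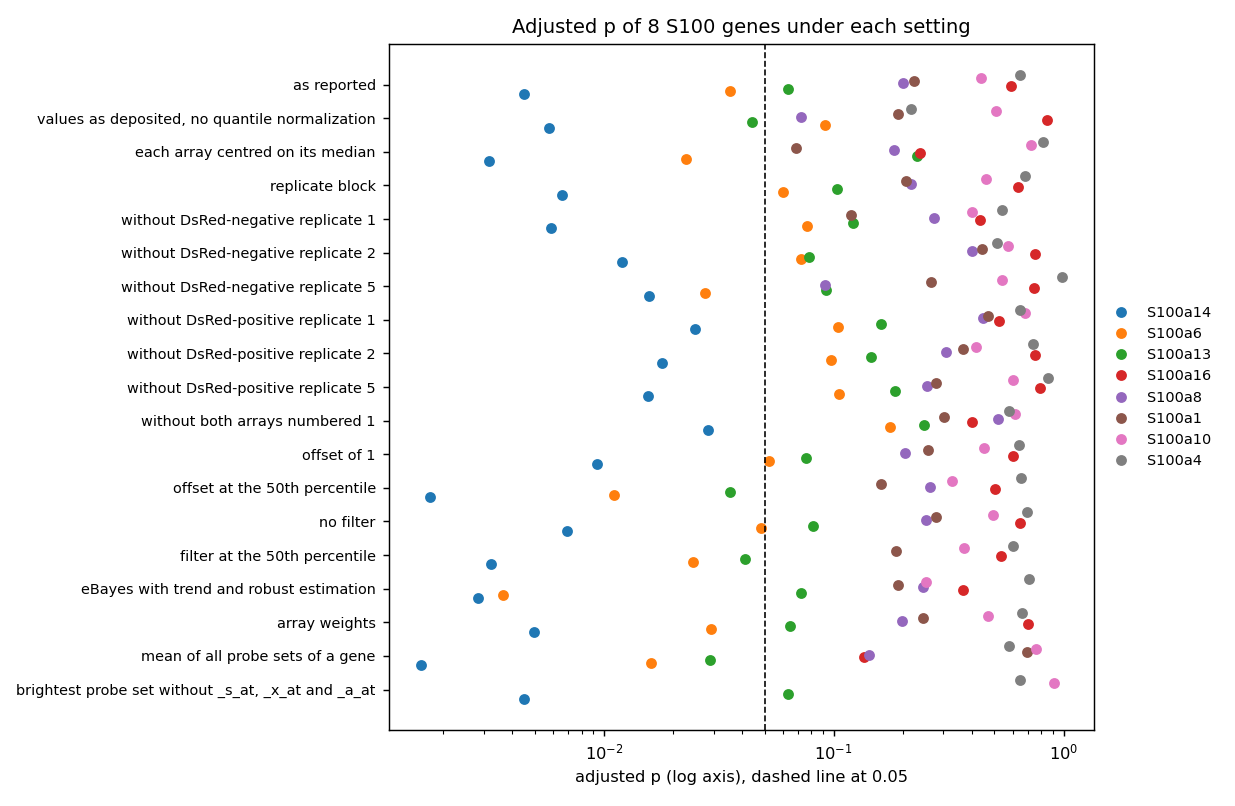
Adjusted p (x axis, log scale, dashed line at 0.05) of the 8 tested S100 genes, each in its own colour, as reported and under 18 alternative settings (rows). S100a14 is left of the line in every row, S100a6 and S100a13 lie on both sides of it, and the other 5 genes lie to its right.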

How the data were processed

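RNA of 3 DsRed-positive and 3 DsRed-negative samples, amplified in 2 rounds, was measured on Affymetrix Mouse Genome 430 2.0 arrays. The deposited values were linear probe set intensity, scaled by the authors before deposition, since the mean after trimming 2% at both ends was 1500.01 on every array. GCOS is named in the submitters' processing notes, with no version, and its settings are not given in the sources used. Before log2, 39.84 was added (the 20th percentile of the values), and arrays were quantile normalized because their medians spanned 0.74. Of 45101 probe sets, 64 controls were removed and 30175 whose mean exceeded 7.18 (the 33rd percentile) entered limma 3.58.1 in R 4.3.3 (lmFit, eBayes, two-sided, Benjamini-Hochberg over all 30175, threshold 0.05). The offset compresses changes of dim probe sets. Symbols came from the platform annotation, updated through gene IDs, and 34945 probe sets had 1 symbol, 932 several and 9160 had none. A gene took the value of its brightest single-gene probe set. The number of arrays limits the precision.

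A fold is given as "at least" when no array of a group exceeded the control level, with values below that level raised to it. Named were all listed S100 genes, the lists of S100 relatives and binding partners, and the nearest genes on chromosome 3. Members, lists and motifs were chosen with earlier results of these data known. Alternatives varied the scaling, offset, filter, variance estimate, weights, probe set choice, replicate block and arrays left out. S100a10 and S100a14 had no promoter entry, and no protein sequences were used here.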

Additional observations from a re-analysis of the deposited data

How the results depend on the processing

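Each comparison was repeated under 18 alternatives. The number of S100 genes called higher, 2 as reported, was 1 to 2 when 1 array was left out. It was 1 with the values on the deposited scale, with a replicate block, with an offset of 1 and without both arrays numbered 1. With probe sets of the _s_at, _x_at and _a_at types left out it was also 1. There S100a6, read only by an _a_at probe set, had no value. The number called lower, 0 as reported, was 1 on the deposited scale, with the offset or the filter at the 50th percentile and with probe sets averaged, and 0 in every fit without 1 array. Calls among the other S100 and fused-type genes, 2 as reported, fell to 1 without both arrays numbered 1 and stayed at 2 without any 1 array. Partners called higher, 2 as reported, numbered 6 with median centring, 4 with a trended robust variance, 3 with array weights or the offset at the 50th percentile, 1 with the replicate block (Ager, while Sugt1 and Ryr2 both lost their calls), 1 with no filter or the filter at the 50th percentile, 0 with an offset of 1, averaged probe sets or no arrays numbered 1, and 0 to 2 without 1 array. Partners called lower, 3 as reported, numbered 2 with the replicate block, an offset of 1 or array weights, 1 with averaged probe sets or no arrays numbered 1, and 0 to 1 without 1 array. Apart from the missing S100a6 value and the smaller number of arrays in some fits, the causes were not tested.

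Signs turned only for values that had not passed. On the deposited scale this held for Anxa2 (-0.045) and Atp2a2 (-0.42), with median centring for S100a10 (0.19), Ahnak (0.091) and Syt1 (0.070), and with averaged probe sets for Anxa2 (-0.13), Ahnak (0.44) and Rptn (0.74). Without both arrays numbered 1 Tchh was 0.32, and Syt1 was 0.013 with an offset of 1 and 0.25 with array weights. When 1 array was left out, Tchh ranged from -0.88 to 0.0060, Syt1 from -0.79 to 0.85 and S100b from -1.23 to 0.019.

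Samples of the same number deviated together only weakly across probe sets, and the fit as reported did not take the numbers as pairs. The r was 0.145, 0.037 and 0.053 for numbers 1, 2 and 5, against -0.078 to 0.014 otherwise. Every sample nevertheless correlated best with its own number, and both arrays numbered 1 shared the high Xist and low Eif2s3y signal. Whether samples of the same number came from the same animal was not tested. With the replicate block 2123 probe sets were higher and 2281 lower, against 2605 and 2600 as reported. Under that block S100a6, Sugt1, Ryr2 and Tlr4 lost their calls, while Ager passed as higher. Median centring gave 4871 and 2313, and the deposited scale 2253 and 3549. Signals near the control level limit S100a8, S100a9, S100b, Rptn, Tchh and the DsRed-negative values of S100a14, S100a3, Ryr2 and Ager.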
